A study of Mus musculus with 30 samples.

Results

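Tmem41b, F730043M19Rik, Cxcl5 and Tubb4a are 4 genes outside chromosome 11 that stood near the top of the comparison between TIMP2 KO and WT hippocampi. TIMP2 is a secreted inhibitor of matrix metalloproteinases, and its gene Timp2 lies on chromosome 11. The 4 genes were chosen by their low p in that comparison, out of 49315 genes in the count table, of which 16486 were tested and 15187 of those lay outside chromosome 11. Their KO against WT values are therefore given as a description and support nothing further. Whole hippocampus was dissected from 13 TIMP2 KO and 17 WT mice of the C57BL/6J strain, and poly(A) RNA was sequenced as paired-end 150-base reads. KO mice comprised 6 males and 7 females, WT mice 10 males and 7 females. The KO line came from the Jackson Laboratory, is a constitutive and not a neuron-specific knockout, and was compared with WT littermates. The age of these mice is not given in the labels, and dates of isolation or harvest, which the methods treat as batches, are not given per mouse.

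The 4 genes have different roles. Tmem41b encodes an endoplasmic reticulum membrane protein of the DedA/VTT family, a lipid scramblase required for the early steps of autophagosome formation and for lipid droplet homeostasis. F730043M19Rik is a long noncoding RNA read divergently from the start of Atxn7l1. Cxcl5 is a chemokine that attracts neutrophils through the receptor Cxcr2. Tubb4a is a brain beta-tubulin abundant in oligodendrocytes and neurons, and mutations of the human gene cause a leukodystrophy with atrophy of the basal ganglia and cerebellum.

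Positions are given on GRCm38 from GENCODE release M21. Tmem41b (ENSMUSG00000047554) spans chr7:109972187-109986929 on the minus strand, and F730043M19Rik (ENSMUSG00000052125) spans chr12:33111711-33147597 on the minus strand, where it is annotated as a bidirectional promoter lncRNA. Cxcl5 (ENSMUSG00000029371) spans chr5:90759360-90761624 on the plus strand. Tubb4a (ENSMUSG00000062591) spans chr17:57080066-57087782 on the minus strand. RefSeq promoter windows of GRCm38.p6, 250 bases before to 50 bases after the start site, were held for 3 of the 4 genes. They are shown because the start regions are what the 3 genes could share apart from their levels. The RefSeq start sites are chr7:109986230 for Tmem41b, chr12:33147586 for F730043M19Rik and chr17:57087600 for Tubb4a. All 3 lie inside the GENCODE spans above, and the Tmem41b window lies wholly within its GENCODE span. For Tmem41b (chr7:109986181-109986480, minus strand) capitals mark GC boxes, the letters GGGCGG on either strand. For F730043M19Rik (chr12:33147537-33147836, minus strand) capitals mark the 99 bases that separate its start site from that of Atxn7l1, which is read the other way. For Tubb4a (chr17:57087551-57087850, minus strand) capitals mark TGACG, the core letters of the cAMP response element, on either strand.

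Tmem41b: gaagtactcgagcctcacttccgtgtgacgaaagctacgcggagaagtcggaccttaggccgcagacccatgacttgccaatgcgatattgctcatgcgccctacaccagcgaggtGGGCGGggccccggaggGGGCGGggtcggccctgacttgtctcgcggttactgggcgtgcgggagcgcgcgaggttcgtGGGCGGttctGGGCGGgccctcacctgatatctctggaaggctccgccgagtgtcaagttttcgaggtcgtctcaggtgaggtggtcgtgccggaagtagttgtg
F730043M19Rik: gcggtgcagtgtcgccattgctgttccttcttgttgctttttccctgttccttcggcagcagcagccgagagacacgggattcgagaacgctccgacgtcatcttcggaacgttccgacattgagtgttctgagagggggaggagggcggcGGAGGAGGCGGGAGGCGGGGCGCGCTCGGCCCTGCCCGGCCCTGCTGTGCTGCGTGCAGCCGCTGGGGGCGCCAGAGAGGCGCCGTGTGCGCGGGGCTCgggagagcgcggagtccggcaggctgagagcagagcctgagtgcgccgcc
Tubb4a: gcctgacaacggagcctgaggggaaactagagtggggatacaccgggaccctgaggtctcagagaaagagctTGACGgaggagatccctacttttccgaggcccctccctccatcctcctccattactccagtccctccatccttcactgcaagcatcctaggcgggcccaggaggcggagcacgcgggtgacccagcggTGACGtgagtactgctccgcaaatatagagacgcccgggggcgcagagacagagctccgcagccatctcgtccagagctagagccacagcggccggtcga

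All 3 windows were rich in G and C, with 63.7% (Tmem41b), 68.7% (F730043M19Rik) and 62.3% (Tubb4a) against a median of 52.7% over 32851 promoter windows of the same length. They held 30, 33 and 19 CpG dinucleotides in that order, against a median of 7. Such values are common. Of all windows, 79.7%, 88.9% and 76.9% had no more G and C than these 3, in that order. For CpG the shares were 89.4%, 92.3% and 73.5%. The Tmem41b window held 4 GC boxes and the F730043M19Rik window held 1, while 35.7% of all windows held at least 1 and the Tubb4a window held none. The letters TGACG occurred at 2 places in the Tubb4a window and at 1 place in each of the other 2 windows, while 20.8% of all windows held them. TATAAA (13.6% of all windows) and CACGTG (7.15%) were in none of the 3 windows, and CCAAT (37.4%) was in that of Tmem41b only. These are matches of letters and are not measured binding sites.

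The genotype was checked on Timp2 in every mouse. Timp2 lay between 130 and 171 CPM (counts scaled to library size) in KO mice and between 256 and 380 CPM in WT mice, so no mouse overlapped with the other group, and the KO mean was 49.9% below the WT mean. Reads on Timp2 thus remained in every KO mouse. Of the markers of hippocampal neurons, all 13 for dentate gyrus granule cells, 8 for CA1 and 10 for CA3 passed the filter on low counts. So did 9 of 10 neocortex, 10 of 11 thalamus and habenula and 8 of 10 striatum markers. Passing the filter therefore cannot check the dissection. Total counts on genes lay between 18345517 and 41081083 per KO mouse and between 19445246 and 32098386 per WT mouse. By edgeR's quasi-likelihood test, 829 of 16486 genes had an unadjusted p under 0.05 between KO and WT (5.03%), and 9 genes (0.0546%) had an adjusted p under 0.05. Of the 9 genes with a smaller p than any of the 4, 8 lie on chromosome 11, and the other is the choroid plexus transcript Ttr. Tmem41b ranked 10 (p = 5.32e-05), F730043M19Rik 11 (p = 5.48e-05), Cxcl5 12 (p = 0.000169) and Tubb4a 13 (p = 0.000171), with adjusted p of 0.0821, 0.0821, 0.216 and 0.216 by edgeR. None of the 4 passed an adjusted p of 0.05 in that fit. Just outside the choice stood Elf5, with a log2 difference of 0.59 ± 0.15 (SE) and p = 0.000254 in edgeR, Gprin1 (-0.10 ± 0.02, p = 0.000326) and Mccc2 (-0.13 ± 0.03, p = 0.000353).

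The 4 genes covered a wide range of expression. Per kb of exon, the mean over all 30 mice was 224 CPM for Tubb4a, 9.98 for F730043M19Rik, 5.73 for Tmem41b and 0.352 for Cxcl5, and no mouse of one gene reached the level of the next. Cxcl5 had 8 to 39 counts per mouse and 534 counts in all. Its coefficient of variation within the sex and genotype groups was 30.1%, and counting alone would give 23.7%. For Tmem41b the variation within groups was 3.52% beside a counting error of 3.29%, and for F730043M19Rik 5.15% beside 2.81%. Tubb4a had 8513 to 21210 counts per mouse, and its variation of 5.23% lay above a counting error of 0.853%. Differences between mice in Tmem41b were thus close to the size that counting gives. Those in Cxcl5 and F730043M19Rik lay above that size, and those in Tubb4a far exceeded it.

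**Figure D1:**
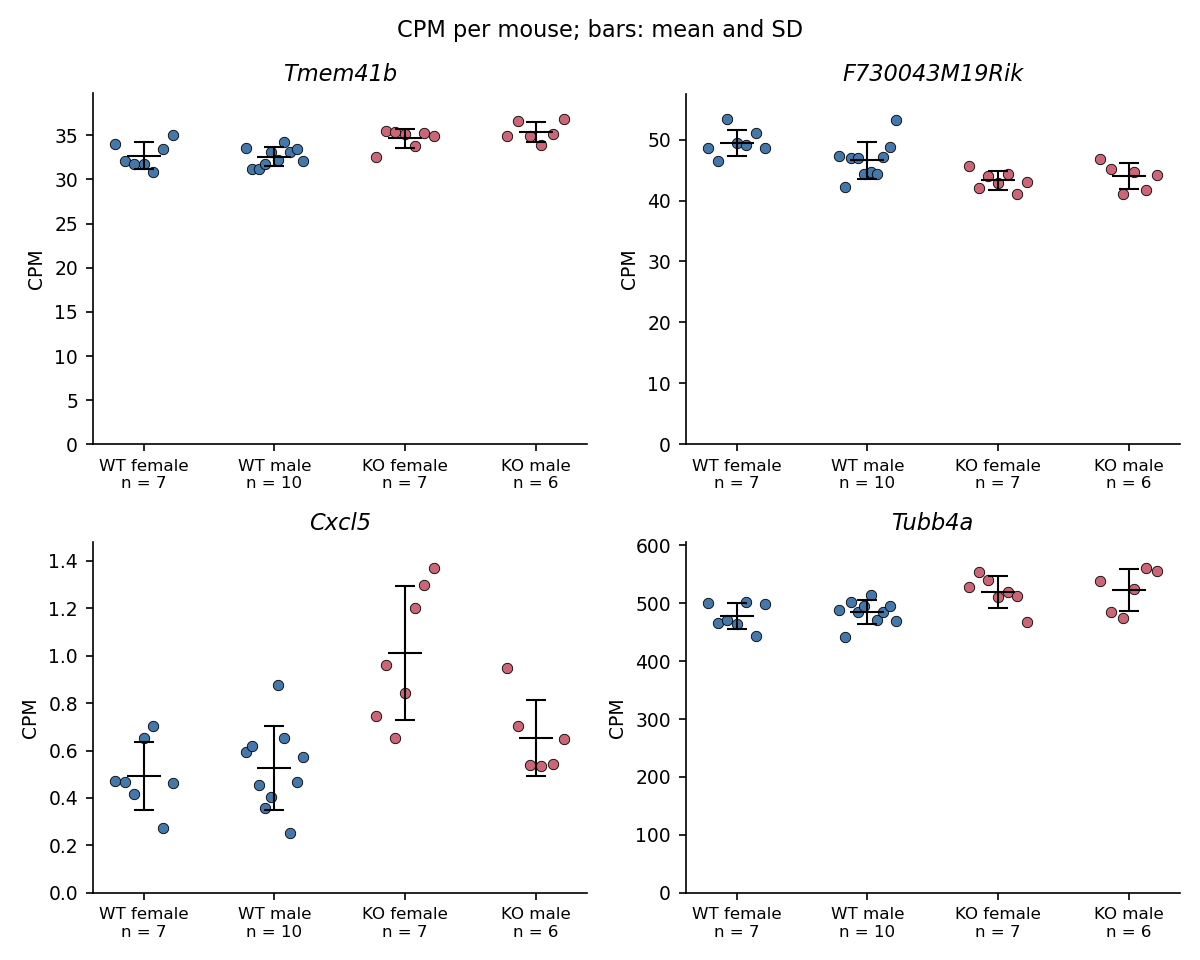
Level of each gene in CPM (vertical axis) in every mouse, by genotype and sex (blue, WT; red, KO); bars show the mean and SD. Tmem41b, Cxcl5 and Tubb4a sit higher and F730043M19Rik lower in KO mice, with overlapping points in all 4 panels; for Cxcl5 the KO females reach 1.37 CPM while the KO males reach 0.95.

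Tmem41b lay between 32.5 and 36.8 CPM in KO mice (median 35.2, n = 13) and between 30.8 and 35.0 CPM in WT mice (median 32.2, n = 17). All 13 KO mice were above the WT median and 7 were above every WT mouse, so the groups overlapped in a narrow band. The KO mean of 35.0 ± 1.13 CPM (SD) was 7.22% above the WT mean of 32.6 ± 1.19 CPM, a log2 difference of 0.10 ± 0.02 (SE). By sex, the KO means were 34.7 ± 1.11 CPM in females and 35.4 ± 1.13 CPM in males, and the WT means were 32.7 ± 1.48 and 32.6 ± 1.04 CPM. The order of the 4 groups was KO males, KO females, WT females, WT males, and both pairs of the same genotype differed by less than their SD.

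F730043M19Rik was the only one of the 4 that was lower in KO mice. Its level ran from 41.1 to 46.8 CPM in KO mice (median 44.0) and from 42.3 to 53.3 CPM in WT mice (median 47.3). All 13 KO mice were below the WT median, and 12 of the 17 WT mice were above every KO mouse. The KO mean of 43.6 ± 1.80 CPM was 8.8% below the WT mean of 47.8 ± 2.98 CPM, which is -0.13 ± 0.03 on the log2 scale. WT females had the highest level, 49.5 ± 2.13 CPM, followed by WT males with 46.6 ± 3.00 CPM, KO males with 44.0 ± 2.16 CPM and KO females with 43.3 ± 1.54 CPM. WT females and WT males differed by more than the SD of the females and less than that of the males, and the 2 KO groups differed by less than either SD.

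Cxcl5 had the lowest level and the largest relative difference. KO mice lay between 0.536 and 1.37 CPM (median 0.747, 15 to 39 counts), and WT mice between 0.250 and 0.877 CPM (median 0.469, 8 to 22 counts). All 13 KO mice exceeded the WT median, 5 exceeded every WT mouse, and 10 of the 17 WT mice were below every KO mouse. The means were 0.846 ± 0.291 CPM in KO and 0.511 ± 0.161 CPM in WT mice, 65.4% higher in KO, with a log2 difference of 0.70 ± 0.17. KO females had the highest mean, 1.01 ± 0.282 CPM, above KO males with 0.653 ± 0.161 CPM, WT males with 0.524 ± 0.177 CPM and WT females with 0.493 ± 0.145 CPM. The 3 lower groups were within 1 SD of their neighbour in that order, and KO females were not. The highest mice were KO females 30, 27 and 25, with 1.37, 1.30 and 1.20 CPM from 25, 26 and 39 counts.

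Tubb4a was the most abundant of the 4. It lay between 467 and 561 CPM in KO mice (median 524) and between 442 and 514 CPM in WT mice (median 485). Of the 13 KO mice, 10 were above the WT median and 8 were above every WT mouse, while the lowest KO mouse, female 30, was at 467 CPM, below the WT median. The KO mean of 521 ± 30.3 CPM was 7.96% above the WT mean of 482 ± 20.8 CPM, or 0.11 ± 0.03 on the log2 scale. Means by sex were 519 ± 27.6 CPM in KO females and 523 ± 35.8 CPM in KO males, and 478 ± 22.9 CPM in WT females and 485 ± 20.0 CPM in WT males. Males and females of the same genotype differed by less than their SD.

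The differences were then followed through 14 other settings of the comparison. All 4 directions were the same in every setting that tested the gene, and in each of the 30 fits that left out 1 mouse. The genes were chosen by this comparison in the same mice, so a kept direction adds no support. With DESeq2, the adjusted p was 0.0245 for Tmem41b, 0.0116 for F730043M19Rik, 0.0692 for Cxcl5 and 0.0561 for Tubb4a. With sex and 8 surrogate variables in the edgeR fit, the adjusted p lay between 0.406 and 0.834, and the log2 differences were 0.09 for Tmem41b, -0.11 for F730043M19Rik, 0.56 for Cxcl5 and 0.08 for Tubb4a. Where at least 10 counts in every mouse were required, Cxcl5 was not tested.

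**Figure D2:**
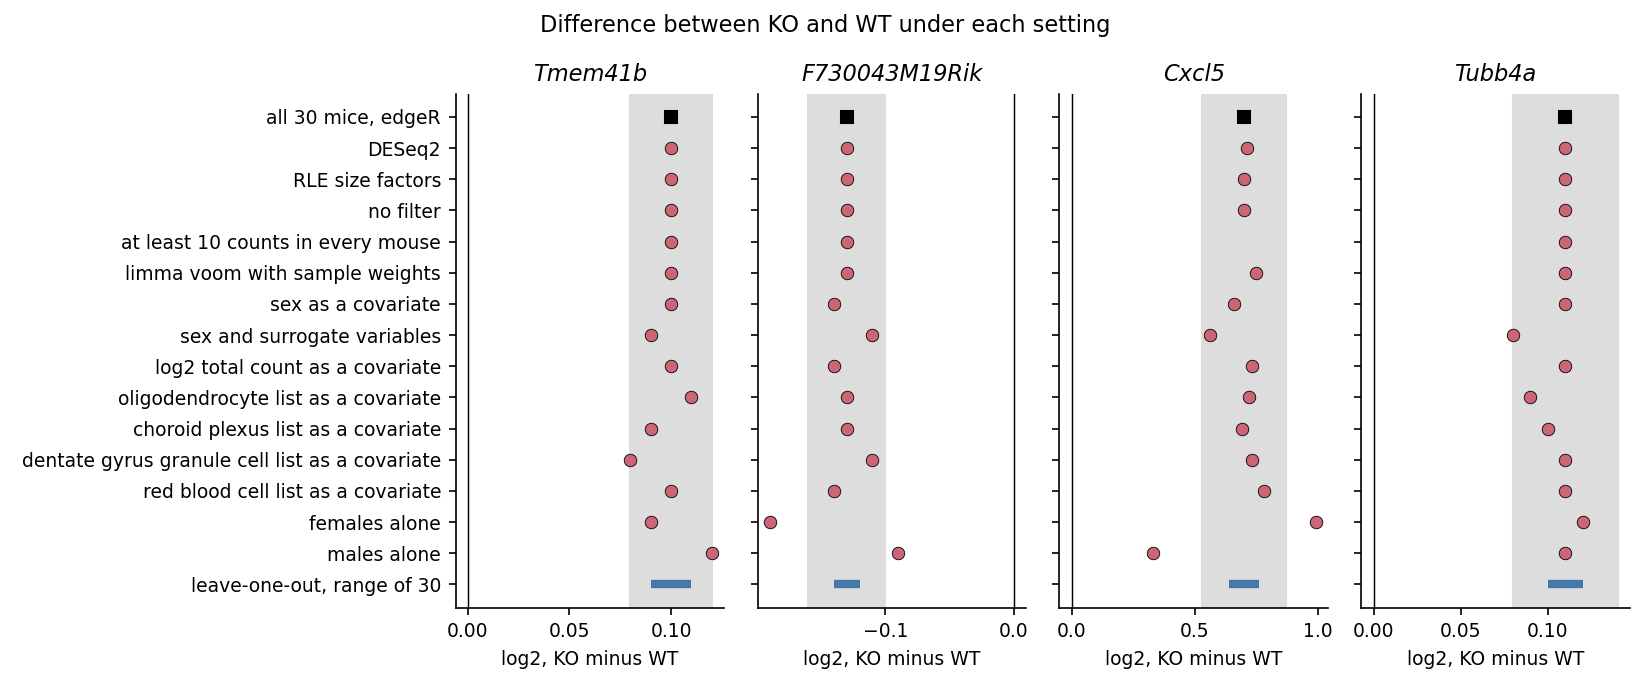
Log2 difference between KO and WT (horizontal axis, KO minus WT) for each gene under each setting (vertical axis); the black square is the edgeR fit on all 30 mice, the grey band its value ± 1 SE, red points the other settings and the blue line the range over 30 fits without 1 mouse. Points keep to the same side of 0 in all panels, and for Cxcl5 the separate fits of females (0.99) and males (0.33) lie farthest from the fit on all mice.

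Sex was not used to choose the genes, and its effect was tested in a model with genotype and sex. Of all genes tested, 1611 (9.77%) had an unadjusted p under 0.05 between males and females by edgeR, and 36 (0.218%) an adjusted p under 0.05. None of the 4 genes passed either threshold in that model. Male minus female log2 differences were 0.01 ± 0.02 (SE) for Tmem41b (adjusted p = 0.921 by edgeR), -0.04 ± 0.03 for F730043M19Rik (0.716), -0.28 ± 0.16 for Cxcl5 (0.603) and 0.02 ± 0.03 for Tubb4a (0.902). Within one genotype, Cxcl5 was lower in males among KO mice by edgeR (-0.61, p = 0.00955, adjusted p = 0.696) and differed by 0.06 among WT mice (p = 0.81). F730043M19Rik was lower in males among WT mice (-0.09, p = 0.0339, adjusted p = 0.863) and differed by 0.02 among KO mice (p = 0.601).

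A difference between the sexes in the effect of genotype was tested by the interaction term, for which 423 genes (2.57%) had an unadjusted p under 0.05 by edgeR and 0 genes (0%) an adjusted p under 0.05. DESeq2 gave 392 genes with an unadjusted p under 0.05 and 0 after adjustment. Cxcl5 was the one gene of the 4 with an unadjusted p under 0.05, with an interaction of -0.67 ± 0.31 (p = 0.0415 by edgeR, adjusted p = 1): its KO minus WT log2 difference was 0.99 in females alone and 0.33 in males alone. The unadjusted p of that term ran from 0.0165 to 0.0816 over the edgeR fits without 1 mouse and was under 0.05 in 13 of 30. With limma voom it was 0.148. F730043M19Rik differed by -0.19 in females and -0.09 in males (interaction 0.11 ± 0.06, p = 0.0648 by edgeR), Tmem41b by 0.09 and 0.12 (0.03 ± 0.05, p = 0.476) and Tubb4a by 0.12 and 0.11 (-0.01 ± 0.05, p = 0.87). No difference between the sexes in the effect of genotype passed adjustment for any of the 4 genes.

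The relatives of each gene were examined from lists drawn up around their functions. The DedA/VTT family is made up of Tmem41b, Vmp1, which acts with it in autophagosome formation, Tmem41a and Tmem64. All 4 were tested, and none of the other 3 had an unadjusted p under 0.05 in KO against WT. Vmp1 had 91.2 ± 5.22 CPM in KO and 88.7 ± 4.39 CPM in WT mice (0.04 ± 0.03 on the log2 scale), Tmem41a differed by 0.08 ± 0.05 and Tmem64 by 0.00 ± 0.02. Vmp1 was higher in males, by 0.06 on the log2 scale (unadjusted p = 0.0412 by edgeR). Of all genes, 9.77% had an unadjusted p under 0.05 between the sexes. Among 38 genes of early autophagy, 2 had an unadjusted p under 0.05 and a higher level in KO (5.26%, where 2.47% of all genes did) and none a lower one (2.56% of all genes). They were Atg4c, a protease that processes Atg8 proteins (0.07 ± 0.03), and Wdr45b, which binds phosphoinositides on forming autophagosomes (0.08 ± 0.03). Wdr45b lies on chromosome 11, as Timp2 does. The median of the 38 genes was 0.01, and that of all genes tested was 0.0001. Of 21 genes for lipid scramblases and lipid droplets, none had an unadjusted p under 0.05, and their median was 0.00.

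Tubulins are the subunits of microtubules, and alpha- and beta-tubulins pair to form the dimer. Besides Tubb4a, 15 tubulin genes were tested. Of these, 5 had an unadjusted p under 0.05 and a higher level in KO (33.3% against 2.47% of all genes), none had a lower one, and their median log2 difference was 0.05. None of them passed adjustment. The 5 were Tubb3, a neuronal beta-tubulin (0.07 ± 0.03, p = 0.00647 by edgeR), Tubb4b (0.08 ± 0.03, p = 0.00908), Tuba1b (0.08 ± 0.03, p = 0.0263), Tuba1a, the main alpha-tubulin of neurons (0.06 ± 0.03, p = 0.028), and Tuba4a (0.05 ± 0.02, p = 0.03). The abundant Tubb2a and Tubb5 differed by 0.04 ± 0.02 each and Tubb2b by 0.03 ± 0.03. Tubb6 and Tubd1, at 4.13 and 4.66 CPM, were the 2 tubulins with a lower mean in KO. The count of 5 fell to 3 when KO male 1 or KO female 3 was left out, to 2 with the level of the choroid plexus or of the dentate gyrus granule cell list as a covariate, to 2 in females alone and to 1 in males alone. Between sexes, Tubb2b alone among the 15 had an unadjusted p under 0.05, where 9.77% of all genes did. It was lower in males by 0.09 on the log2 scale.

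**Figure D3:**
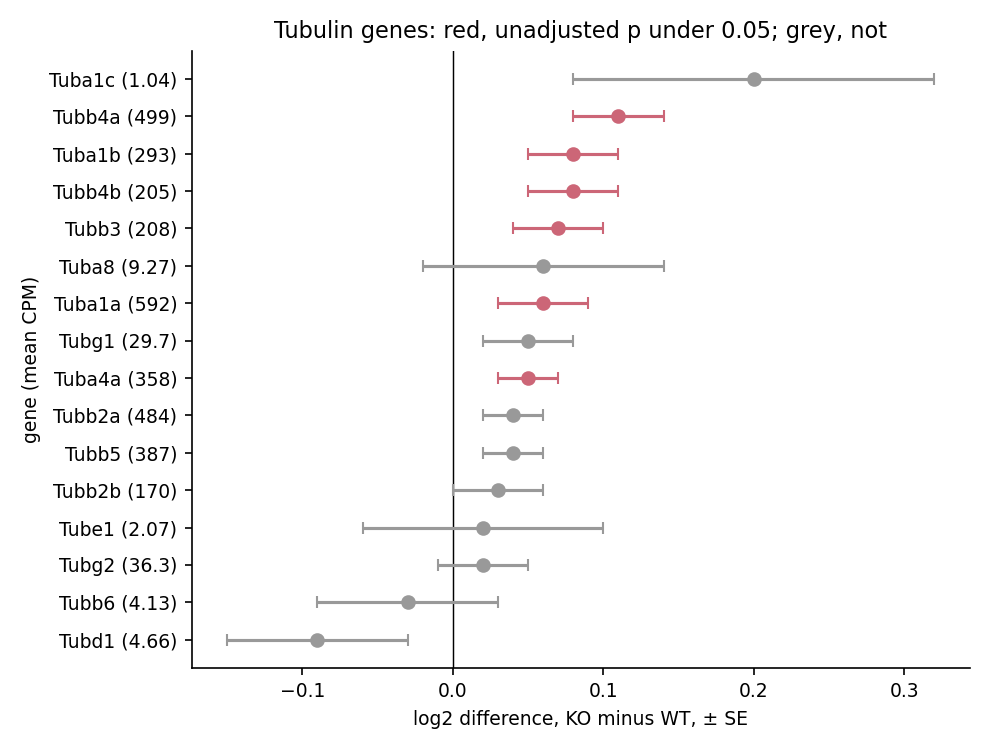
Log2 difference, KO minus WT, ± SE (horizontal axis) of Tubb4a and the 15 other tubulin genes tested (vertical axis, mean CPM in brackets); red marks an unadjusted p under 0.05 by edgeR and grey the others. Tubb4a and 5 other tubulins are red and right of 0, and Tubb6 and Tubd1 are the 2 points left of 0.

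Beta-tubulin genes are alike in sequence, and reads that match several genes can be split or dropped in counting. None of the 2079 stretches of 150 bases in the Tubb4a transcript occurred in a transcript of another gene, and the same was so for Tubb3 and Cxcl5. The longest run that Tubb4a shared with another beta-tubulin was 53 bases, with Tubb2a and Tubb2b, at coding bases 1105 to 1157 of 1332 (chr17:57080868-57080920 of GRCm38, minus strand, within an exon). It is printed because it is the place where Tubb4a and its paralogs are hardest to tell apart.

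Tubb4a and Tubb2a: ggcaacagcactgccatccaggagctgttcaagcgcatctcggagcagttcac

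For Tubb4b the longest shared run was 38 bases and for Tubb3 32 bases. By contrast, 54.7% of the 150-base stretches of Tuba1a and 51.5% of those of Tuba1b occurred in other genes, so the values of these 2 are uncertain. Tuba4a shared 30.3% of its stretches with the overlapping gene Stk16, and Tubb4b shared 11.9% with its pseudogene Tubb4b-ps1. Of the stretches of Tmem41b, 4.72% matched the processed pseudogene Gm6223 on chromosome 9. F730043M19Rik shared 279 of its 4610 exon bases with Gm16267, which is read on the other strand. The strand setting of the counting is not given in the sources used here, so reads of these 2 genes cannot be told apart there. Gm16267 itself was at 1.29 CPM and differed by -0.03 ± 0.14.

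Of 25 genes for tubulin folding, modification and nucleation, 3 had an unadjusted p under 0.05 and a lower level in KO (12%, where 2.56% of all genes did) and none a higher one. They were Tbcd, a folding cofactor (-0.09 ± 0.03), Tubgcp2, a part of the gamma-tubulin ring complex (-0.07 ± 0.03), and Hdac6, a tubulin deacetylase (-0.06 ± 0.03). Tbcd lies on chromosome 11. The median of the list was -0.01.

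Oligodendrocytes are a main site of Tubb4a expression. Of 26 other oligodendrocyte markers, 1 had an unadjusted p under 0.05 and a higher level in KO (3.85%, near the 2.47% of all genes), Aspa, which breaks down N-acetylaspartate (0.12 ± 0.06) and which also lies on chromosome 11. The list's median was 0.07, and Mbp, which encodes myelin basic protein, differed by 0.06 ± 0.06. Its mean log2 CPM was 5.78 ± 0.14 (SD) in KO and 5.71 ± 0.14 in WT mice, and over 30 mice, after the means of the 4 sex and genotype groups were removed, it had a Spearman rho of 0.46 with Tubb4a. The excitatory neuron list had a rho of 0.41 with Tubb4a, the CXC list 0.36, and the endothelial and mural lists 0.32 each. Negative values were found too, -0.34 for the neocortex list and -0.29 for the interneuron list. The list of the other tubulins had a rho of 0.17. With the mean of the oligodendrocyte list as a covariate, the difference in Tubb4a was 0.09 on the log2 scale instead of 0.11. The adjusted p of Tubb4a by edgeR was then 0.526 instead of 0.216. In whole tissue, more cells of a type and more RNA per cell cannot be told apart.

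Few relatives of Cxcl5 had enough counts to be tested. Of 23 CXC chemokines and receptors, 9 passed the filter on low counts, and 1 of the 8 besides Cxcl5 had an unadjusted p under 0.05 and a higher level in KO (12.5%, where 2.47% of all genes did), Ackr3, a scavenging receptor of Cxcl12 (13.3 ± 1.19 CPM in KO, 12.3 ± 1.56 CPM in WT, 0.12 ± 0.06). Cxcl12 differed by -0.04 ± 0.04, Cxcl14 by 0.01 ± 0.03 and Cxcl10 by 0.22 ± 0.24. The receptor Cxcr2 was below the filter, with 17 counts over all 30 mice, 12 in the 13 KO and 5 in the 17 WT mice. The chemokine Cxcl1, a close relative that acts on the same receptor, had 181 counts, 94 in the 13 KO and 87 in the 17 WT mice, of which 1 mouse held 51, and 2 mice were at 0. The Il17, Tnf and NF-kB response list holds 28 usual inducers and companions of Cxcl5, of which 18 were tested. None of the 18 had an unadjusted p under 0.05, and their median was 0.02. The others did not pass the filter. Summed over the 13 KO mice, Il1b, Lcn2, Sele and Il6 had 71, 133, 46 and 20 counts. Over the 17 WT mice they had 49, 89, 18 and 17. Sums were lower in KO mice for Tnf (5 against 15), Ccl2 (14 against 28) and Ccl3 (59 against 75). The same was so for Ccl4 (23 against 32) and Ccl7 (11 against 17). Csf3 had 4 in each group. Single mice held 98 of the 222 Lcn2 and 39 of the 64 Sele counts. Among neutrophil markers, 2 of 11 passed the filter, neither with an unadjusted p under 0.05, and S100a8 and S100a9 had 0 to 32 and 0 to 41 counts per mouse. Over the 13 KO and the 17 WT mice, the summed counts of the markers below the filter were 56 and 27 for S100a8, 82 and 52 for S100a9, 37 and 11 for Ltf, 32 and 13 for Ngp, 17 and 8 for Retnlg, 8 and 4 for Camp, 4 and 4 for Mmp8, and 0 and 4 for Ly6g. Most of these sums were thus higher in KO mice, as Cxcl5 was, at counts too low for the test, with up to 19 of the 45 Ngp counts in 1 mouse. Within groups, the mean of the 2 neutrophil markers that passed the filter had a rho of -0.02 with Cxcl5. The part of neutrophil transcripts in the difference in Cxcl5 was not tested. None of the 4 red blood cell markers tested had an unadjusted p under 0.05. The mean log2 CPM of that list was 0.11 ± 1.25 in KO and -0.22 ± 1.40 in WT mice and had a rho of -0.52 with Cxcl5 within groups. With that list as a covariate, the log2 difference in Cxcl5 was 0.78, with an adjusted p of 0.0301 by edgeR. That covariate was added after the data were seen, and it was the one setting in which Cxcl5 had an adjusted p under 0.05. With the oligodendrocyte, choroid plexus and granule cell lists the adjusted p of Cxcl5 was 0.243, 0.535 and 0.456.

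Some lists for other cells moved with genotype. The choroid plexus list had 8 genes tested, of which 6 had an unadjusted p under 0.05 and a higher level in KO (75%, where 2.47% of all genes did), and its mean log2 CPM ran from 1.44 to 4.50 in KO and from 0.64 to 2.54 in WT mice. Of its defining markers, Ttr had 73.0 ± 173 CPM (SD) in KO and 6.07 ± 8.44 CPM in WT mice, and 26.1 ± 40.6 CPM in KO without female 11, which held 635 CPM, while Folr1, Kcne2, Aqp1 and Otx2 did not pass the filter. The dentate gyrus granule cell list had 6 of 13 genes with an unadjusted p under 0.05 and a lower level in KO (46.2%, where 2.56% of all genes did), Prox1 among them (-0.16 ± 0.05), and its mean ran from 5.44 to 5.80 in KO and from 5.60 to 6.12 in WT mice. With the choroid plexus list as a covariate, the log2 differences were 0.09 for Tmem41b, -0.13 for F730043M19Rik, 0.69 for Cxcl5 and 0.10 for Tubb4a. The adjusted p by edgeR was 0.455, 0.343, 0.535 and 0.715 in that order, and without a list 0.0821, 0.0821, 0.216 and 0.216. With the granule cell list the log2 differences were 0.08, -0.11, 0.73 and 0.11 in that order. Their adjusted p by edgeR was then 0.846, 0.846, 0.456 and 0.456. Within groups, the rho of the choroid plexus list with the 4 genes lay between 0.11 and 0.18, and that of the granule cell list between -0.36 (Tmem41b) and 0.14 (Tubb4a).

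The neighbours of each gene on its chromosome were compared next. Within 1 Mb of the 4 genes, 92 genes were tested and 2 had an unadjusted p under 0.05 (2.17%, against 5.03% of all genes tested). Both lay near Tmem41b, which had 27 tested neighbours. They were Scube2, a secreted protein that releases hedgehog ligands (0.37 ± 0.13, 0.843 CPM), and B430319F04Rik (-0.34 ± 0.14, 0.54 CPM). The nearest tested neighbours of Tmem41b, Dennd5a and Ipo7, differed by -0.03 ± 0.02 and -0.01 ± 0.02. None of 13 neighbours of F730043M19Rik, 9 of Cxcl5 and 43 of Tubb4a had an unadjusted p under 0.05. Atxn7l1, which shares the start region of F730043M19Rik printed above, differed by -0.05 ± 0.03 (p = 0.0675 by edgeR), in the same direction as the noncoding RNA, and Cdhr3 on the other side differed by 0.08 ± 0.21. The nearest tested genes on each side of Cxcl5, Gm9958 and Mthfd2l, differed by -0.02 ± 0.14 and -0.05 ± 0.06. Their starts lay at -392.2 and 171.8 kb from that of Cxcl5, and no other gene in between was tested. On each side of Tubb4a, the nearest tested genes Dennd1c and Gm11110 differed by 0.06 ± 0.13 and -0.16 ± 0.19.

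**Figure D4:**
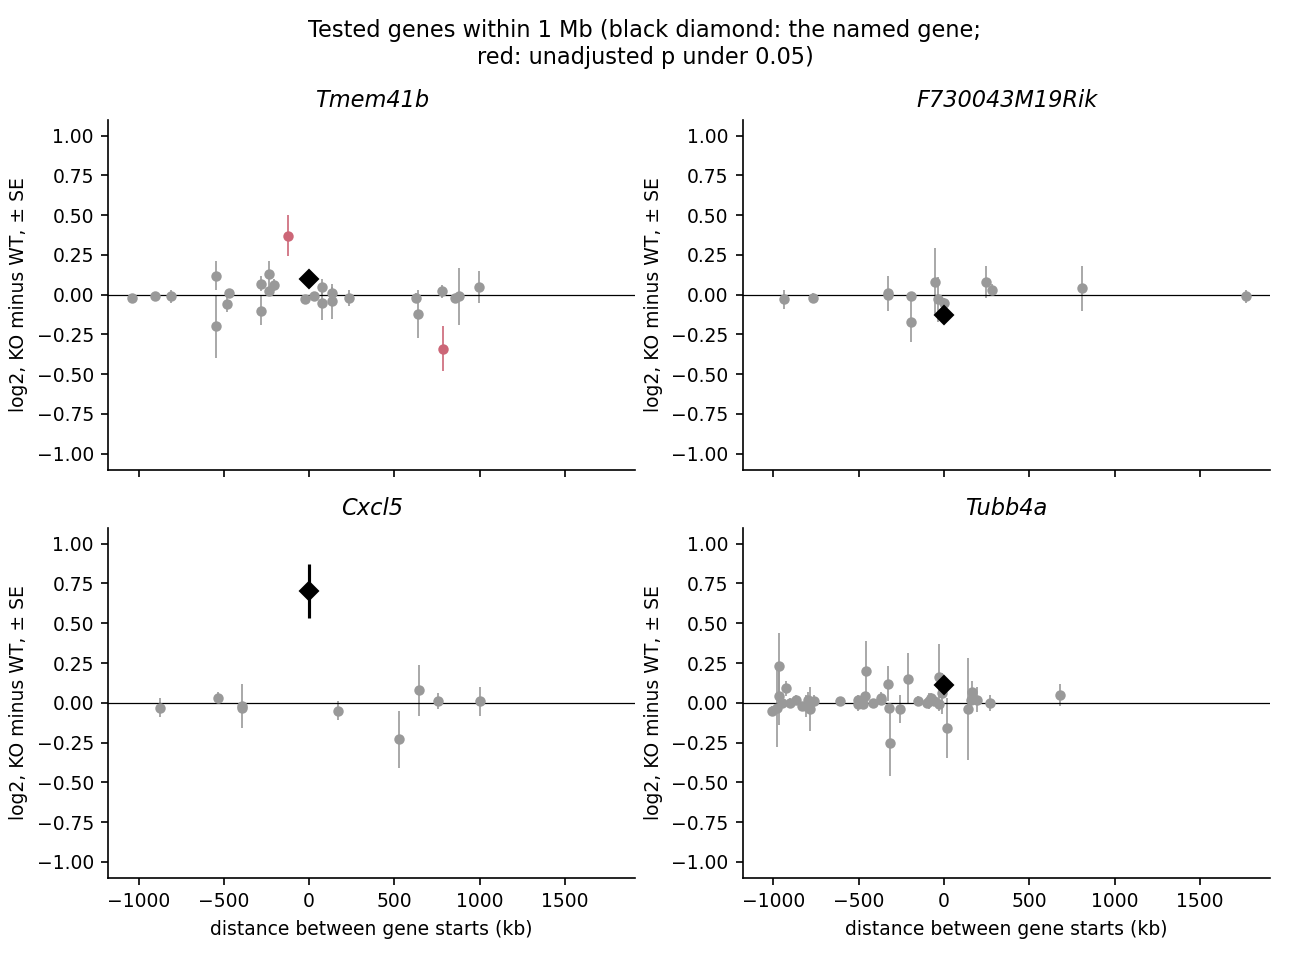
Log2 difference, KO minus WT, ± SE (vertical axis) of tested genes within 1 Mb of each gene, against the distance between gene starts in kb (horizontal axis; long genes can reach into the window from a start farther away). The black diamond is the gene named in the panel title and red points have an unadjusted p under 0.05; 2 of 92 neighbours are red, both around Tmem41b.

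Genes whose level followed each of the 4 from mouse to mouse were named by Spearman's rho over 30 mice, after removal of the means of the 4 sex and genotype groups. These are descriptions, since all points share library depth and tissue composition, and the largest of 16485 values is high by selection. The median absolute rho was 0.14 for Tmem41b, 0.14 for F730043M19Rik, 0.12 for Cxcl5 and 0.16 for Tubb4a. Tubb4a went with Otub1, a deubiquitinase (0.76), Sf3a2, a splicing factor (0.76), Plbd2 (0.73), Aldh2, a mitochondrial aldehyde dehydrogenase (0.71), and Grina (0.70), and no tubulin was among them. F730043M19Rik went with Fbxo31 (-0.73), Hnrnpa3, an RNA-binding protein (0.72), Tmem175, a lysosomal channel (0.70), Zfp273 (0.68) and Scaper (0.66). Tmem41b went with 1810009A15Rik (0.74), Tmem68 (-0.67), Tiam2 (-0.66), Slc22a3 (-0.66) and Kcnj2 (-0.66). For Cxcl5 the values were lowest, with Gm28424 (-0.62), Tmem173, which encodes the DNA-sensing adaptor STING (0.62), Gm43300 (-0.60), Mul1 (0.60) and Slc16a4 (-0.59). Of these 20 genes, Hnrnpa3 and Slc22a3 had an unadjusted p under 0.05 between KO and WT, where 5.03% of all genes did. The 4 genes did not follow each other, with rho between -0.16 and 0.15, and their rho with Timp2 within groups lay between -0.39 (Tubb4a) and 0.34 (Tmem41b). The rho with total counts per mouse within groups was -0.42 for Tmem41b, 0.28 for F730043M19Rik, -0.24 for Cxcl5 and -0.02 for Tubb4a. With total counts as a covariate, the KO minus WT difference was 0.10 for Tmem41b, -0.14 for F730043M19Rik, 0.73 for Cxcl5 and 0.11 for Tubb4a.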

How the data were processed

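Poly(A) RNA of whole hippocampus from 30 mice was sequenced by the authors, whose deposited values are raw counts per gene, without normalization, after STAR alignment to GRCm38. The submitters' processing notes name Trimmomatic 0.36, STAR 2.5.2b, featureCounts and Subread 1.5.2. The counts were whole numbers, and 0 columns were left unmatched to a mouse. Symbols and positions came from GENCODE M21, which lacks 259 of the identifiers.

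Under R 4.3.3, edgeR 4.0.16 gave TMM factors, the filterByExpr selection with genotype as the group, and quasi-likelihood tests with Benjamini-Hochberg adjustment over all genes tested. Sexes were pooled without covariates for KO against WT. Each SE of a log2 difference was its absolute value divided by the square root of the quasi-likelihood F statistic. CPM values use TMM library sizes, and log2 CPM a prior count of 2. The common biological coefficient of variation was 7.52%. The alternatives were DESeq2 1.42.0, RLE factors, removal of only the genes at 0 in every mouse, a minimum of 10 counts in each mouse, limma 3.58.1 voom with sample weights, sex, sva 3.50.0 surrogate variables, total counts, marker list means, each sex alone and each mouse left out. The dentate gyrus granule cell and red blood cell covariates, and the count of other tubulins under each setting, were added after the data were seen. Rank correlations were computed in Python with numpy 2.4.6 and scipy 1.17.1. The fit was tested on simulated counts.

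The 4 genes and all lists were chosen with earlier results of these data known. Named genes were the 4 themselves, list genes with an unadjusted p under 0.05 or close relatives, the 5 genes with the largest rho for each, the nearest tested genes, and genes ranked directly after the 4. Cxcr2, Cxcl1, Cxcl10, Cxcl12, Cxcl14, Mbp, the neutrophil markers and the less changed tubulins were named after their values were seen. The untested genes of the Il17, Tnf and NF-kB response list were too. Further lists of astrocyte, microglia, border macrophage, endothelial, mural, meningeal, ependymal, neuronal and neighbouring region markers had 0 or 1 gene in either direction with an unadjusted p under 0.05. Exact promoter letters came from RefSeq. Intervals on counts cover counting error only. Labels do not say whether mice shared litters.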

Additional observations from a re-analysis of the deposited data

How the results depend on the processing

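All 4 differences between KO and WT had the same direction under every setting in which the gene was tested. That could hardly be otherwise, since the genes were chosen by their low p in these same mice. Over fits that left out 1 mouse, the log2 difference ran from 0.09 to 0.11 for Tmem41b, -0.14 to -0.12 for F730043M19Rik, 0.64 to 0.76 for Cxcl5 and 0.10 to 0.12 for Tubb4a. The causes of the following changes were not tested.

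Genes with an adjusted p under 0.05 between KO and WT numbered 9, and 5 with the choroid plexus or the granule cell list as a covariate, 2 in females alone, 3 in males alone and 7 to 9 without 1 mouse. With an unadjusted p under 0.05 there were 829, and 1971 without a filter, since more genes were tested, 534 in males alone and 703 to 957 without 1 mouse. The other tubulins higher in KO numbered 5, and 2 with either of those lists, 2 in females alone, 1 in males alone and 3 to 7 without 1 mouse.

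Between sexes, 36 genes had an adjusted p under 0.05, and 85 with DESeq2, 15 in WT mice alone, 13 in KO mice alone and 25 to 56 without 1 mouse (56 without WT male 31). With an unadjusted p under 0.05 there were 1611, and 2703 without a filter, 933 in WT and 998 in KO mice alone. The sign of the difference between sexes changed for Tmem41b (-0.003) and Cxcl5 (0.06) in WT mice alone and for F730043M19Rik (0.02) in KO mice alone. None of the 4 genes had an adjusted p under 0.05 in either of these edgeR fits, but Cxcl5 in KO mice alone (-0.61, p = 0.00955, adjusted p = 0.696) and F730043M19Rik in WT mice alone (-0.09, p = 0.0339, adjusted p = 0.863) had an unadjusted p under 0.05. The interaction gave 423 genes with an unadjusted p under 0.05 and 1434 without a filter; that of Tubb4a changed sign in 6 of 30 fits without 1 mouse, with a range of -0.03 to 0.02.

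Of the 5 genes most like Tmem41b, 0 stayed among the 5 when group means were not removed and 1 with Pearson's r. The same counts were 1 and 2 for F730043M19Rik, 0 and 1 for Cxcl5, and 0 and 4 for Tubb4a. Within 5 Mb of the 4 genes, 3.51% of 228 neighbours had an unadjusted p under 0.05, against 2.17% within 1 Mb. Cxcl5, at 8 to 39 counts per mouse, is limited by counting. No paired analysis was possible because the labels give no litter or harvest date by which mice could be paired.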
